A study of Mus musculus with 6 samples.

Results

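The alpha-defensin family was taken as every row of the count table whose gene name begins with Defa, which gave 39 of 54446 rows. Of these, 22 were protein-coding genes and 17 pseudogenes, all on mm10 chromosome 8 between 19210462 and 21750000. The protein-coding rows spanned 710 kb, from 21025545 to 21735471. RNA was sequenced from epithelium washed off 10 cm segments of small intestine, labelled jejunum in the titles and jejunum and ileum in the series text. Controls were 3 co-housed Prkci flox/flox mice, and knockouts were 3 Prkci flox/flox mice with Villin-CRE added, in which Cre is driven by a promoter active throughout the intestinal epithelium. All carried the floxed alleles, and all were euthanized at 3 to 4 months of age. Prkci encodes an atypical protein kinase C of the apical polarity complex, and the series asks what its loss does to the transcripts of enterocytes.

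Alpha-defensins, called cryptdins in the mouse intestine, are small cationic peptides that Paneth cells store in granules at the crypt base and release into the crypt lumen, where they kill bacteria. Each is made as a precursor whose carboxy-terminal part, held by disulphide bonds, is the active peptide. In mice the matrix metalloproteinase Mmp7 cuts the precursors into active form. The genes form a cluster of recent duplicates on chromosome 8, so many copies differ by a handful of bases and short reads of one copy may fit another. Mouse neutrophils, unlike human ones, do not make alpha-defensins.

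Total counts per library ran from 18972906 to 26687856. Prkci itself stood between 44.0 and 46.9 CPM (counts scaled to 1000000 per library, with TMM-scaled totals) in the controls and between 14.6 and 21.5 CPM in the knockouts, without overlap (edgeR adjusted p = 0.0719, DESeq2 adjusted p = 9.92e-08). Knockout replicate 1 lay near the controls on the first principal component of all genes (−21.9, against −33.3 to −30.4 for controls and 50.9 and 68.0 for the other knockouts). Xist and Ddx3y counts went against the sex given by the submitters in 3 libraries, namely controls 2 and 3 and knockout 3. By these counts, controls 1 and 2 and knockout 1 had a male pattern. Control 3 and knockouts 2 and 3 had a female pattern. Leaving out knockout replicate 1 thus leaves female-pattern knockouts alone, and effects of sex and of that library cannot be told apart. Vim, the mesenchymal gene whose protein the submitters used to watch purity, stood at 3.48 to 4.27 CPM in controls and 6.77 to 9.98 CPM in knockouts. Summed enterocyte markers were abundant in both groups (36962 to 42682 CPM in controls, 37464 to 54144 CPM in knockouts). Of the marker lists for non-epithelial cells, 5 had summed levels that were higher in every knockout than in any control. The fibroblast list did not. Of single genes, 1513 of 15068 tested were higher in every knockout. In these 5 lists this held for 7 of 10 tested T cell genes, 4 of 8 macrophage genes and 2 of 8 B cell genes. It also held for 1 of 6 smooth muscle genes and the 1 neutrophil gene. Over all genes tested, 9.32% were higher at an unadjusted p, 3.6% by DESeq2 and 0.0531% by edgeR, which placed 0 members of these 5 lists past its adjusted threshold. T cell genes summed to 138 to 256 CPM in controls and 295 to 860 CPM in knockouts, with 5 of 10 tested members higher by DESeq2 and 8 at an unadjusted p. Macrophage genes summed to 11.4 to 16.7 and 26.6 to 44.9 CPM (3 of 8 by DESeq2, 5 unadjusted), and B cell genes to 33.0 to 132 and 149 to 331 CPM (1 of 8 by DESeq2, 3 unadjusted). Smooth muscle genes summed to 258 to 273 and 278 to 351 CPM (3 of 6 by DESeq2, 4 unadjusted). Mylk made up most of this sum, at 244 to 260 CPM in controls and 265 to 273 CPM in knockouts. Acta2, Des, Tagln and Myh11 overlapped, with Myh11 at 0.264, 0.333 and 1.17 CPM and at 12.8, 0.566 and 24.6 CPM. Fibroblast genes, mostly Fbln1, summed lower, to 297 to 322 and 186 to 283 CPM. Of their 6 tested members, 1 had a negative fold, against 49.3% of all genes. Neutrophil genes summed to 0.458 to 1.23 and 2.02 to 10.8 CPM, where Mpo, Elane, Ngp, Camp and Ly6g had no read and Ltf, the lactoferrin gene that epithelial cells also express, was the tested member (DESeq2 adjusted p = 0.000671). The part of these cells in the values below was not tested.

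How far the copies can be told apart sets what each row means. Over the 231 pairs of protein-coding Defa rows, identity of the coding sequence ran from 61.6% to 100%, with a median of 83.3%. In 34 pairs it was at least 95%, and in 5 pairs the coding sequences were identical: Defa3 with Defa17, Defa2 with Defa33, Defa20 with Defa32, Defa23 with Defa31, and Defa36 with Defa37. Defa24 and Defa30, the pair with the most counted reads, were 98.6% identical and differed at 4 of 282 coding bases. The coding part of the last exon, which holds the sequence of the active peptide, is given here for the members the results turn on, 5′ to 3′ from GENCODE M21 on mm10. Capitals mark bases that differ from Defa24 or have no partner in it.
Defa24 (chr8:21735268-21735377, plus strand): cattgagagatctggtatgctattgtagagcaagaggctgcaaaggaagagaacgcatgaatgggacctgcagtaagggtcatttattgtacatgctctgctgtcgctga
Defa30 (chr8:21135394-21135503, plus strand): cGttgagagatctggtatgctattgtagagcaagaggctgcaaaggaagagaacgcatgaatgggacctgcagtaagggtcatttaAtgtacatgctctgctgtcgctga
Defa17 (chr8:21656532-21656641, plus strand): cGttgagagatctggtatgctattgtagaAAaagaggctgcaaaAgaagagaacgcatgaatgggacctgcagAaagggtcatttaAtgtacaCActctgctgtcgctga
Defa26 (chr8:21618773-21618882, plus strand): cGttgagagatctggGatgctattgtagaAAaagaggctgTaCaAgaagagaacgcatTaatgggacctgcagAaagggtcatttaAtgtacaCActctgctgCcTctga
Defa27 (chr8:21316278-21316387, plus strand): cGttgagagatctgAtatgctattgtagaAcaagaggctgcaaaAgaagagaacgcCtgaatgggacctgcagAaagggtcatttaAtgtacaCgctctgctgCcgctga
Defa35 (chr8:21065799-21065908, plus strand): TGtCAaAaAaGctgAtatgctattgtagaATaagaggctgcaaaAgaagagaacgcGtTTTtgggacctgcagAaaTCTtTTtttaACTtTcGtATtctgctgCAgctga
Defa22 (chr8:21163046-21163155, plus strand): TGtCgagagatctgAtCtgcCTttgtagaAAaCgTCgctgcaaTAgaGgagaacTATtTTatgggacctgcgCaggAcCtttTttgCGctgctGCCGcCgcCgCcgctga
Defa21 (chr8:21026314-21026423, plus strand): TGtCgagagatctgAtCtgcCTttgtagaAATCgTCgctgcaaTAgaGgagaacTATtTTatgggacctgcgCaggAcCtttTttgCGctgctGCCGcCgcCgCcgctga
Defa29 (chr8:21325999-21326177, minus strand): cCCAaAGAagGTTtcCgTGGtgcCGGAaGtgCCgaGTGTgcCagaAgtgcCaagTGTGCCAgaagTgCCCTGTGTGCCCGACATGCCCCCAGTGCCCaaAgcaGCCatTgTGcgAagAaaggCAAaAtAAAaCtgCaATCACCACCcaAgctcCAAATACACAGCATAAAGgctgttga
Defa30 differed from Defa24 at 2 of these 110 bases, Defa17 at 8, Defa27 at 9 and Defa26 at 14. Defa3 had the same 110 bases as Defa17. Defa21 and Defa22 formed a separate pair, 99.3% identical to each other over the coding sequence. In this exon they had 30 and 29 bases unlike Defa24, and 8 positions each without a partner. Defa29, of the cryptdin-related sequence group, had 179 coding bases there and 81 positions without a partner.

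The protein-coding copies without reads had hardly any sequence of their own. For each transcript, the share of its 50-base words found in the transcripts of no other gene, on either strand, was counted. It was 71.9% for Defa24, 56.6% for Defa29, 59.8% for Defa26, 47.6% for Defa30 and 47.1% for Defa27. Defa21 had 27.1% and Defa22 25.1%, while Defa17 had 8.0% and its coding twin Defa3 7.8%. The 6 protein-coding rows without any read (Defa2, Defa23, Defa31, Defa33, Defa36 and Defa37) had 0% to 5.2%, and at most 10.9% of 100-base words. The 10 protein-coding rows with enough reads to test had 7.8% to 71.9%. A count of 0 in those 6 rows therefore does not part an unexpressed gene from one whose reads were placed elsewhere or dropped. Private sequence did not by itself go with reads: Defa28 (36.8%) had 8 reads in all libraries and Defa25 (25.2%) had 1, where Defa22 with 25.1% had 540. The pseudogenes Defa-ps11, Defa-ps12, Defa-ps13, Defa-ps14 and Defa-ps15 were private throughout (100%) and had no read. Neither the read length nor the handling of reads with several matches is stated.

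**Figure D1:**
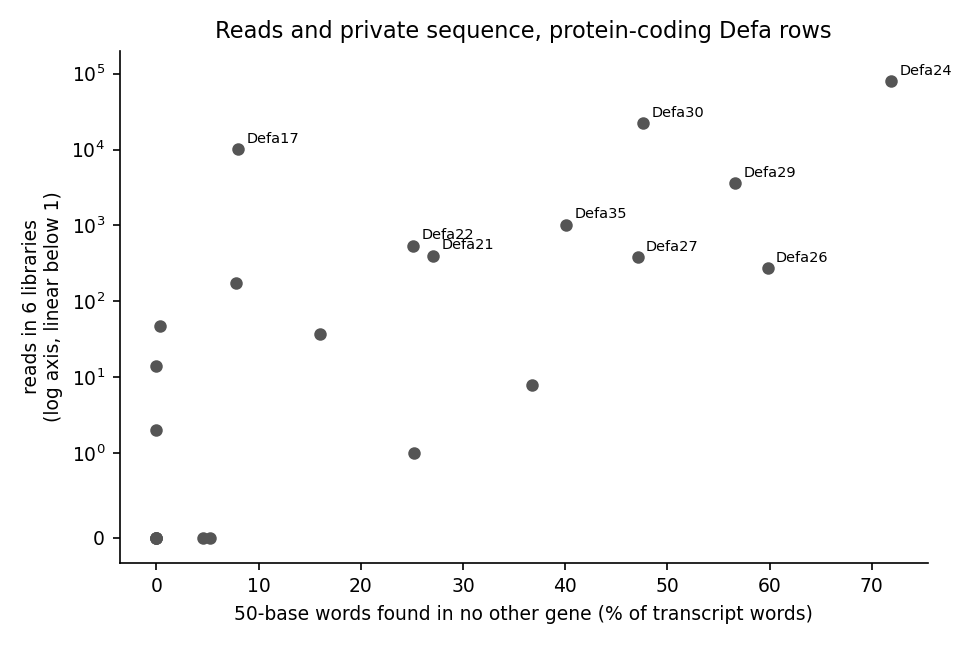
Each point is one of the 22 protein-coding Defa rows, with the share of its 50-base transcript words found in no other gene on the x axis and its reads in all 6 libraries on the y axis (log, linear below 1). The 6 rows at 0 reads lie at 5.2% or less, 4 of them on the same spot at 0%, while Defa24 lies highest at 71.9% and Defa17 is high at 8.0%.

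Summed over all 39 rows, alpha-defensin transcripts were lower in each knockout than in any control. The sum is not changed by how reads were split among the 39 rows, though it could be by reads dropped or given to other rows of the cluster. It was 646, 2547 and 886 CPM for controls, listed by replicate number (1360 ± 1035, SD, n = 3), from 14677, 61129 and 21163 reads. For knockouts it was 280, 482 and 201 CPM (321 ± 145, SD, n = 3), from 5540, 11073 and 5026 reads. Control replicate 2 stood far above the other controls, and the knockouts lay closer together. The ratio of the knockout mean to the control mean was 0.236. Without control replicate 2 it was 0.418, and without the 3 libraries of doubtful sex label, which left 1 control, it was 0.590. Fewer Paneth cells and less alpha-defensin RNA per Paneth cell cannot be told apart in these bulk libraries. The family was chosen with these results known, so its sum is given without a test.

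Of the 39 rows, 16 had no read in any library, 6 of them protein-coding. With 3 reads as the limit that a count of 0 allows, such a row could have stood at up to 0.120 to 0.152 CPM in a library, by counting error alone. The expression filter, which asks for 0.439 CPM in 3 libraries, left 11 rows for testing, namely 10 protein-coding genes and the pseudogene Defa-ps7. The other 12 rows with reads held at most 47 reads each over the 6 libraries, and 0.169% of all alpha-defensin reads between them. Among the 11, Defa26, Defa27, Defa3 and Defa-ps7 reached the filter's level in fewer than 3 knockouts.

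All 11 tested rows had a negative log2 fold change, against 49.3% of all genes tested, and none passed the threshold of 0.05 over all genes. The values ran from −3.32 to −0.84 with a median of −1.95, where the median of all genes tested was 0.01. By edgeR, 0 were lower past the adjusted threshold, against 0.00664% of all 15068 genes. At an unadjusted p below the threshold, 6 of the 11 were lower, against 7.09% of all genes. DESeq2 placed 2 lower past its adjusted threshold, against 1.95% of all genes, and limma-voom 0. In 4 of the 11 (Defa24, Defa30, Defa26 and Defa27), every knockout library lay below every control library, which held for 11.7% of all genes. Defa26 and Defa27 entered the test through the controls, where they were higher, so these counts describe the tested rows and are not support for a change of the family. Without knockout replicate 1, edgeR placed the same number as DESeq2 past the threshold, 2 of 12 tested rows, against 7.44% of all genes lower. The members share reads and a source cell, so these counts are not independent of one another.

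**Figure D2:**
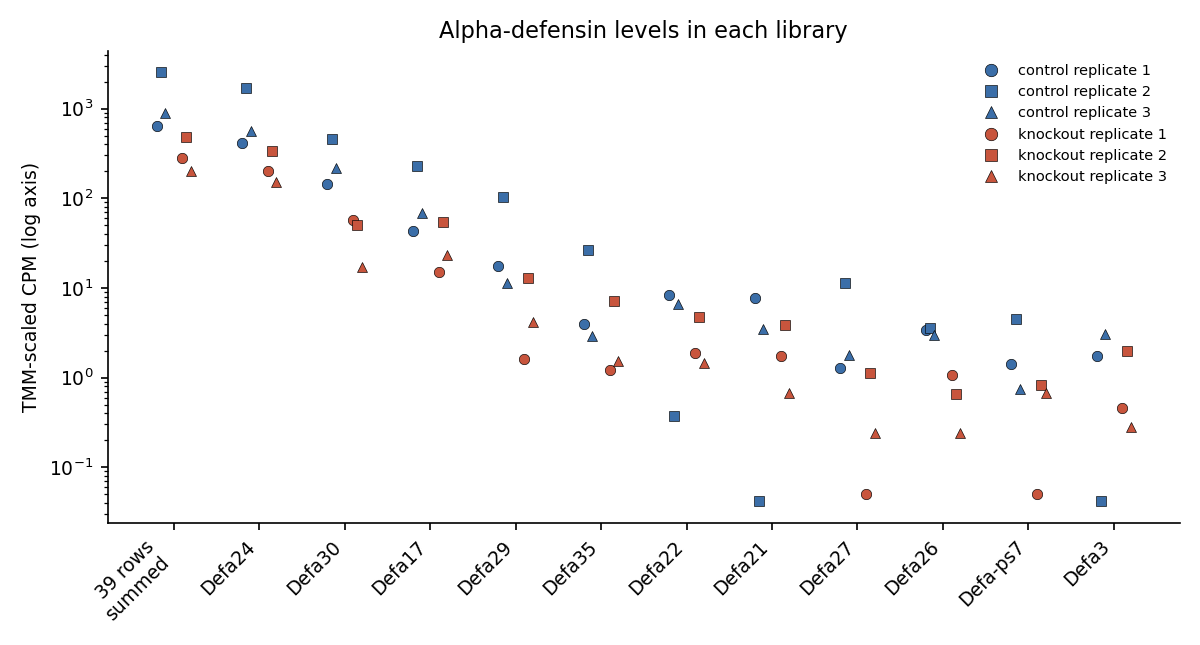
TMM-scaled CPM on a log axis for the sum of the 39 rows and for each of the 11 tested rows, 1 point per library, controls in blue and knockouts in red, with the marker shape giving the replicate. The sum lies at 646 to 2547 CPM in controls and 201 to 482 CPM in knockouts, and control replicate 2 is highest for Defa24 (1706 CPM) but lowest for Defa21 (0.0417 CPM).

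Most alpha-defensin reads were counted to 4 genes. Defa24, Defa30, Defa17 and Defa29 took 97.0% ± 1.34 (SD, n = 3) of the family's reads in control libraries and 96.6% ± 1.20 (SD, n = 3) in knockout libraries. Per kilobase of exon, the control means were 2133 CPM for Defa24, 691 for Defa30, 285 for Defa17, 86.7 for Defa29 and 27.9 for Defa35. In knockouts they were 551, 104, 78.1, 12.4 and 8.31 CPM per kilobase in the same order. Within every control the order from Defa24 down to Defa29 was the same. In knockout replicates 2 and 3, Defa17 stood above Defa30, which has nearly the same exon length (397 and 398 bases). These orders are of counted reads and need not be those of the transcripts. Private 50-base words made up 71.9% of Defa24, 47.6% of Defa30 and 8.0% of Defa17, and the handling of shared reads is not stated.

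Defa24 (ENSMUSG00000064213.5, 21734494 to 21735471), the row with the most counted reads, stood at 410, 1706 and 565 CPM in the controls and at 200, 341 and 152 CPM in the knockouts. The groups did not overlap, but control replicate 2 was 3.50 times the mean of the other controls. The log2 fold change was −1.95 (SE 0.57, edgeR adjusted p = 0.187), and it ran from −2.33 to −0.60 over the alternatives with adjusted p from 0.0802 to 1. Without control replicate 2 it was −1.08. Defa24 took a larger part of the family's reads in knockouts, 71.2% (exact 95% interval 70.0 to 72.4), 70.7% (69.8 to 71.6) and 75.3% (74.1 to 76.5). In the controls its part was 63.5% (62.7 to 64.3), 67.0% (66.6 to 67.4) and 63.8% (63.2 to 64.5). These intervals cover counting error only, because no molecular identifiers are named for these reads, which are then not independent. The groups did not overlap in this part.

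Defa30 (ENSMUSG00000074444.4, 21134642 to 21135598), the near copy of Defa24, stood at 146, 460 and 218 CPM in the controls and at 56.6, 50.5 and 17.0 CPM in the knockouts. All knockouts lay below all controls, with the lowest value in knockout replicate 3. Its log2 fold change was −2.73 (SE 0.57, edgeR adjusted p = 0.118; DESeq2 adjusted p = 9.93e-06). Without knockout replicate 1 it was −3.03 (edgeR adjusted p = 0.0192), without control replicate 2 it was −2.14, and over all alternatives the adjusted p ran from 9.93e-06 to 1. Per 1000 reads of Defa24, Defa30 had 356, 270 and 386 reads in the controls and 284, 148 and 112 in the knockouts. Knockout replicate 1 was thus within the control range for this ratio and the other knockouts below it.

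Defa17 (ENSMUSG00000060208.5, 21655780 to 21656735) stood at 43.1, 229 and 67.7 CPM in the controls and at 15.1, 54.9 and 23.1 CPM in the knockouts. Knockout replicate 2 lay above control replicate 1, so the groups overlapped. The log2 fold change was −1.87 (SE 0.71, edgeR adjusted p = 0.263). It was −0.84 without control replicate 2, −2.55 without knockout replicate 2 and −0.30 without the 3 libraries of doubtful sex label. With the replicate number as a block the SE was 0.15 and the adjusted p 0.169.

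Defa29 (ENSMUSG00000074437.5, 21325887 to 21327020), the cryptdin-related gene, stood at 17.5, 103 and 11.4 CPM in the controls and at 1.62, 13.0 and 4.2 CPM in the knockouts. Control replicate 2 was 7.13 times the mean of the other controls, and knockout replicate 2 lay above control replicate 3. The log2 fold change was −2.80 (SE 1.03, edgeR adjusted p = 0.248), −1.20 without control replicate 2 and −3.87 without knockout replicate 2.

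Defa26 (ENSMUSG00000060070.5, 21618183 to 21618972) was the tested row with the most even controls, at 3.39, 3.54 and 3.01 CPM (3.31 ± 0.272, SD, n = 3). The knockouts stood at 1.06, 0.653 and 0.240 CPM (0.652 ± 0.411, SD, n = 3), all below the controls. These values rest on 72 to 85 reads per control and 6 to 21 reads per knockout. The log2 fold change was −2.36 (SE 0.46, edgeR adjusted p = 0.113; DESeq2 adjusted p = 0.000143), and −2.89 without knockout replicate 1 (edgeR adjusted p = 0.00487). Over all alternatives the adjusted p ran from 0.000143 to 1. Of the expressed members it was one of the most distinct by sequence, with 98.9% of its 100-base words private.

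Among the other tested rows, Defa27 had the most negative fold change, −3.32 (SE 1.14, edgeR adjusted p = 0.231), from 29, 276 and 43 reads in controls and 1, 26 and 6 reads in knockouts. Without control replicate 2 its value was −1.67, and without knockout replicate 2 it was −4.91. Defa35 (4.00, 26.4 and 2.93 CPM in controls, 1.21, 7.19 and 1.52 CPM in knockouts) overlapped between groups, as did Defa-ps7. The log2 fold change of Defa35 was −1.74 (edgeR adjusted p = 0.424), and −0.07 without control replicate 2. Defa34, which was not tested, had 29 reads in knockout replicate 2 and 0 to 3 reads in each other library. It was the member whose knockout mean exceeded its control mean most, and that excess lay in a single library.

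**Figure D3:**
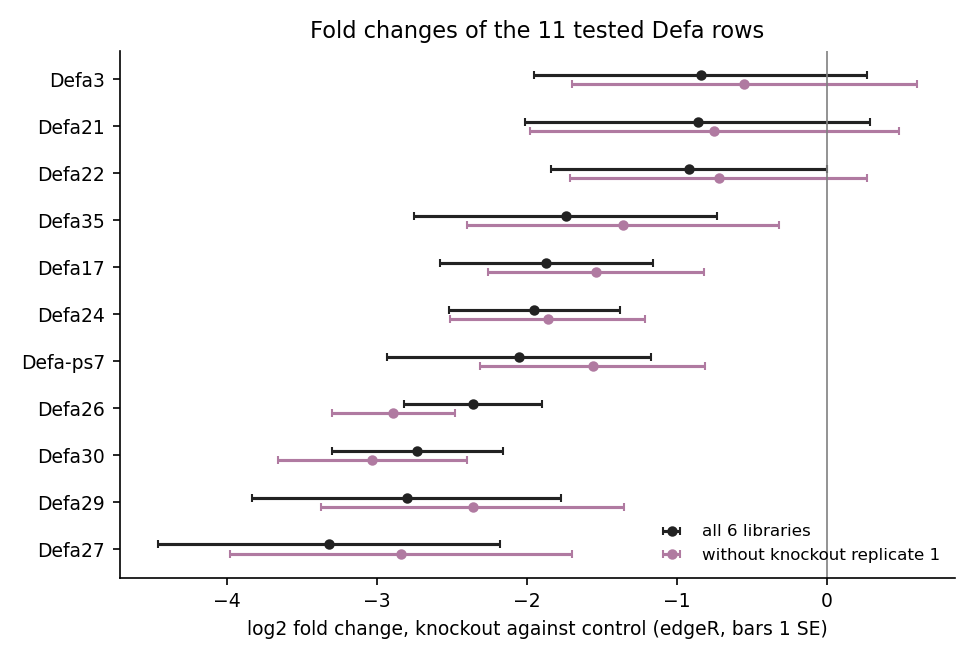
Log2 fold change of knockout against control from edgeR for the 11 tested rows, with bars of 1 SE, over all 6 libraries (black) and without knockout replicate 1 (purple). The values over 6 libraries lie between −3.32 for Defa27 and −0.84 for Defa3, and those of Defa26 (the narrowest bar, SE 0.46) and Defa30 move to −2.89 and −3.03 without knockout replicate 1.

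The controls did not share one composition of the family. Defa21, Defa22 and Defa3, singled out after their values were seen, were nearly absent from control replicate 2, the library with the most alpha-defensin reads. Defa21 had 177, 1 and 84 reads in controls and 34, 88 and 17 in knockouts. Defa22, its close copy, had 191, 9 and 157 reads in controls and 37, 110 and 36 in knockouts. Defa3 had 39, 1 and 74 reads in controls and 9, 45 and 7 in knockouts. In contrast, Defa35 was 7.61 times, Defa27 7.48 times and Defa29 7.13 times higher in control replicate 2 than the mean of the other controls. Defa17, with the coding sequence of Defa3, was 4.13 times higher there, and Defa26 1.11 times. Gm14851, which RefSeq names Defa38, shared the low value, with 37 reads against 625 and 756 in the other controls.

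Relative to Defa24 the same library stood apart. Per 1000 Defa24 reads, Defa22 had 0.220 reads in control replicate 2 and 9.38 to 20.5 in the other 5 libraries, and Defa21 had 0.0244 there and at least 4.49 elsewhere. For these rows the 3 controls therefore did not form an even group, and their fold changes were −0.86 for Defa21 (SE 1.15), −0.92 for Defa22 (SE 0.92) and −0.84 for Defa3 (SE 1.11), with edgeR adjusted p of 0.729, 0.641 and 0.724. Without control replicate 2 the values were −1.45, −1.47 and −1.42, with adjusted p of 0.506, 0.453 and 0.55.

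**Figure D4:**
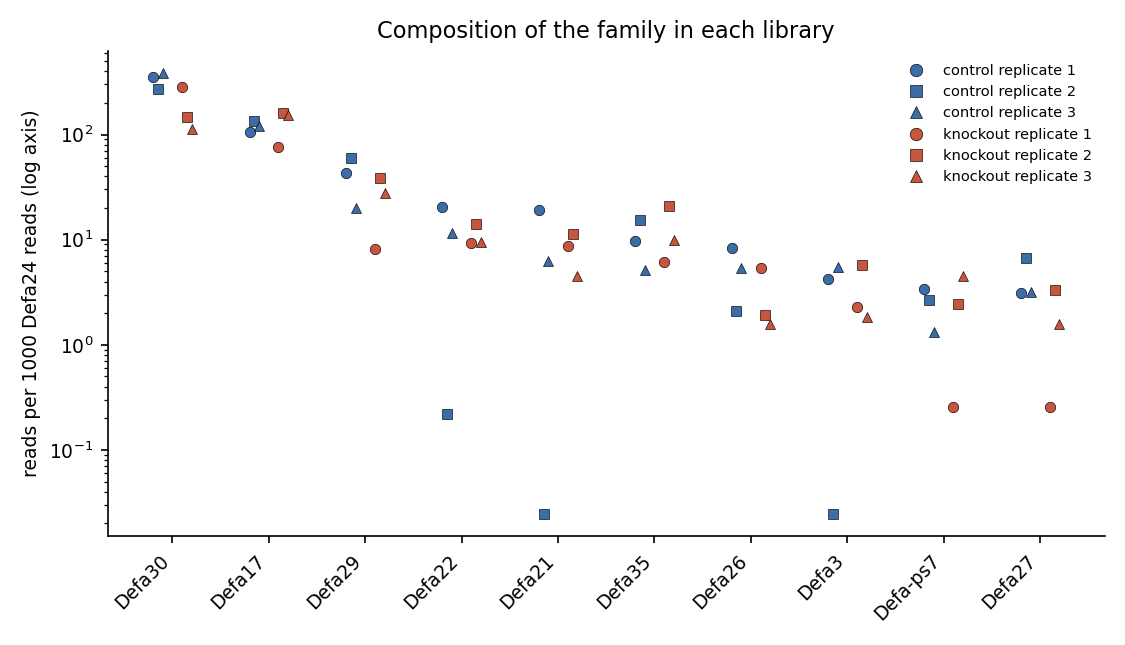
Reads of each tested Defa row per 1000 reads of Defa24 in the same library, on a log axis, controls in blue and knockouts in red, with the marker shape giving the replicate. Control replicate 2 (blue squares) lies at 0.220 for Defa22 and 0.0244 for Defa21 and Defa3, while the other 5 libraries lie between 1.85 and 20.5 for these 3 rows.

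The upstream sequence of these copies was read from the RefSeq promoter table (GRCm38.p6, the assembly of mm10), which held 16 alpha-defensin genes by RefSeq symbol, among them Defa30, Defa21, Defa22 and Defa35 but not Defa24, Defa17, Defa29 or Defa26. Paneth cell genes are known targets of Wnt signalling through TCF/LEF factors. The 200 bases before the start are printed for Defa30 and Defa21, because these members had different patterns in the controls. Capitals mark ATCAAAG, a TCF/LEF core, and TATAAA, the TATA element.
Defa30 (chr8:21134450-21134649, plus strand): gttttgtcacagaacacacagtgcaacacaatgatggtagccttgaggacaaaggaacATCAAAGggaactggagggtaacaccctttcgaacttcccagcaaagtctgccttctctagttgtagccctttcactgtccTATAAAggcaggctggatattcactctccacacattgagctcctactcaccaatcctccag
Defa21 (chr8:21025345-21025544, plus strand): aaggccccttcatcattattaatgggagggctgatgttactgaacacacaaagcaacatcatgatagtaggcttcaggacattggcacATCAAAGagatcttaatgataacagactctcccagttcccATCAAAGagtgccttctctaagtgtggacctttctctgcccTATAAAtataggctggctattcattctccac
The letters ATCAAAG, searched on both strands, were in 13 of the 16 windows, against 2.45% of all 32851 promoter windows of the same length. TTCAAAG was in 0 of the 16, against 3.42% of all, and TATAAA in 15, against 9.96%. ATCAAAG and TTCAAAG share their last letters and were counted separately. The windows without ATCAAAG belonged to Defa38, Defa42 and Defa43, the copies on the minus strand. Defa21 and Defa22, both low in control replicate 2, had identical windows with 2 matches, and Defa30 had 1. Defa35, which was 7.61 times higher in that library than the mean of the other controls, also had 2. The copies share ancestry, so their windows are not independent, and a match is a description of letters.

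Rows of the cluster that lack the Defa name, also chosen after their values were seen, were lower in knockouts when summed. RefSeq gives 6 more rows inside the cluster a Defa symbol, and their sum was 86.2, 135 and 83.4 CPM in controls and 17.1, 32.0 and 9.13 CPM in knockouts, without overlap. AY761184 (Defa39 by position) stood at 49.9, 59.7 and 40.0 CPM in controls and 7.89, 25.0 and 6.65 CPM in knockouts (log2 fold change −1.92, SE 0.50, edgeR adjusted p = 0.160, DESeq2 adjusted p = 0.00261). Gm15292 (Defa40) stood at 8.54, 73.5 and 11.6 CPM in controls and 2.78, 2.13 and 0.601 CPM in knockouts (log2 fold change −4.10, SE 0.99, edgeR adjusted p = 0.142, DESeq2 adjusted p = 0.00655). Gm14851 (Defa38) overlapped, at 27.5, 1.54 and 31.6 CPM in controls and 6.42, 4.31 and 1.68 CPM in knockouts (log2 fold change −2.30, SE 0.97, edgeR adjusted p = 0.301, DESeq2 adjusted p = 0.265). With the 6 rows the family's ratio was 0.233.

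The other genes of the Paneth cell did not all go with the alpha-defensins. Of 35 listed genes, 33 were tested, and 0 passed by edgeR, with 3 higher and 7 lower at an unadjusted p, while DESeq2 placed 1 higher and 3 lower and limma-voom 0. Over all genes, the shares were 9.32% higher and 7.09% lower at an unadjusted p, and 3.6% and 1.95% by DESeq2, so the 3 of 33 higher lay near the share of all genes. Without knockout replicate 1, 6 of 33 were higher and 7 lower by edgeR, against 10% and 7.44% of all genes. The list's median log2 fold change was −0.17, against 0.01 for all genes, and 19 of 33 had a negative fold. Of the list's Paneth cell markers, Mptx1 (−3.23), Mptx2 (−3.02), Ang4 (−2.05), Lyz1 (−1.26), Itln1 (−1.18), Habp2 (−0.54) and Nupr1 (−0.46) had negative folds. Mmp7 (0.94) and Pla2g2a (0.75) had positive ones. Mptx1 stood at 18.0, 19.9 and 31.7 CPM in controls and 7.64, 0 and 0 CPM in knockouts, without overlap (edgeR adjusted p = 0.31, DESeq2 adjusted p = 0.599). Mptx2, a mucosal pentraxin of Paneth cells, stood at 51.6, 167 and 62.5 CPM in controls and 13.8, 15.6 and 5.13 CPM in knockouts (log2 fold change −3.02, SE 0.58, edgeR adjusted p = 0.113, DESeq2 adjusted p = 9.73e-07), and −2.31 without control replicate 2. The other genes that DESeq2 placed lower were Clps, which encodes colipase (22.5, 61.3 and 36.5 CPM in controls, 17.8, 7.06 and 9.97 CPM in knockouts, adjusted p = 0.00194), and the lectin gene Reg4 (46.8, 127 and 82.9 CPM, against 49.7, 32.2 and 26.6 CPM, adjusted p = 0.0262). The gene placed higher was Nod2, a sensor of bacterial peptidoglycan (1.89, 1.33 and 1.21 CPM in controls, 2.43, 3.83 and 3.28 CPM in knockouts, DESeq2 adjusted p = 0.0322). Clps and Nod2 did not overlap between groups, and Reg4 did. Lyz1, the Paneth cell lysozyme, stood at 309, 1432 and 247 CPM in controls and 96.4, 487 and 246 CPM in knockouts, and so overlapped (log2 fold change −1.26, SE 0.80, edgeR adjusted p = 0.460). Without control replicate 2 the log2 fold change of Lyz1 was −0.01. Ang4, an antimicrobial ribonuclease, stood at 434, 960 and 703 CPM in controls and at 460, 33.0 and 15.1 CPM in knockouts (log2 fold change −2.05, SE 1.16, edgeR adjusted p = 0.416). Without knockout replicate 1, the log2 fold change of Ang4 was −4.86 (edgeR adjusted p = 0.00169).

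Mmp7, the convertase of the precursors, took another course. It stood at 21.9, 56.7 and 23.5 CPM in controls and at 9.97, 120 and 65.6 CPM in knockouts (log2 fold change 0.94, SE 0.78, edgeR adjusted p = 0.570), 0.18 without knockout replicate 2 and 1.52 without control replicate 2. Knockout replicate 1 was below all controls and the other knockouts above all of them. There were 29.5, 44.9 and 37.7 alpha-defensin reads per Mmp7 read in controls, and 28.1, 4.00 and 3.07 in knockouts. Per Lyz1 read there were 2.09, 1.78 and 3.59 in controls and 2.91, 0.991 and 0.820 in knockouts, which overlapped through knockout replicate 1. Per Itln1 read, the intelectin gene of Paneth and goblet cells, there were 2.46, 2.44 and 1.71 in controls and 1.46, 1.39 and 0.759 in knockouts, without overlap. In knockout replicate 1 the ratios to Mmp7 and Lyz1 were near the control values, while in the other knockouts they were lower for both.

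**Figure D5:**
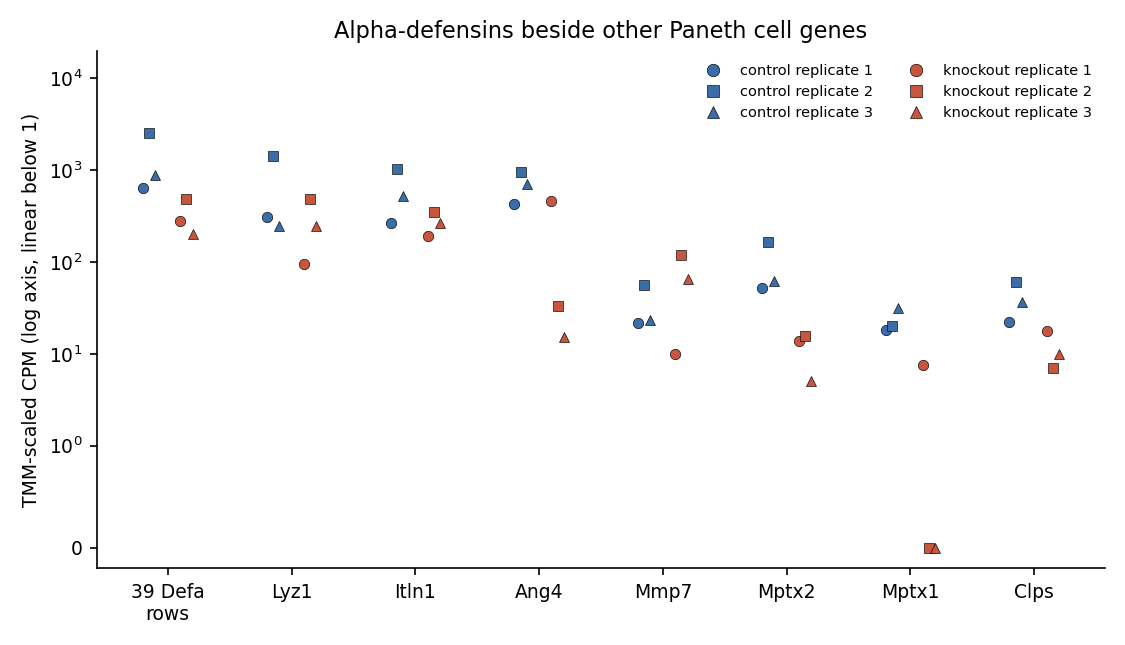
TMM-scaled CPM (log axis, linear below 1) of the 39 Defa rows summed and of 7 other Paneth cell genes, 1 point per library, controls in blue and knockouts in red. Mptx2, Mptx1, Clps and the alpha-defensin sum lie lower in every knockout. Lyz1, Itln1, Ang4 and Mmp7 overlap, and Mmp7 reaches 120 CPM in knockout replicate 2 against at most 56.7 CPM in controls.

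Paneth cells sit at the crypt base and are more frequent distally, so crypt and regional genes are given beside these values. Of 14 tested crypt stem cell genes, 0 passed by edgeR (2 higher and 1 lower at an unadjusted p), DESeq2 called 1 higher, and the median was 0.04 on the log2 scale. These counts lie near the shares of all genes given for the Paneth list. Their summed level was 513, 930 and 525 CPM in controls and 440, 914 and 913 CPM in knockouts. Proliferation genes summed to 259, 442 and 275 CPM in controls and 247, 657 and 529 CPM in knockouts. Of the 16 tested, 1 had a negative fold, against 49.3% of all genes, and the median was 0.59. By edgeR and DESeq2, 0 of them passed. Olfm4, a crypt base stem cell gene, stood at 150, 419 and 147 CPM in controls and 111, 262 and 220 CPM in knockouts. Its highest value was in control replicate 2, as was that of the alpha-defensin sum, though not of Defa21, Defa22 or Defa3. Lgr5, another stem cell gene, stood at 2.90, 9.71 and 4.52 CPM in controls and 2.23, 2.79 and 1.72 CPM in knockouts, without overlap and again highest in control replicate 2 (log2 fold change −1.35, SE 0.46, edgeR adjusted p = 0.228). Cd44, a Wnt target and the gene called higher, stood at 14.5, 24.0 and 15.7 CPM in controls and 32.0, 86.0 and 90.9 CPM in knockouts (log2 fold change 1.95, SE 0.41, edgeR adjusted p = 0.118, DESeq2 adjusted p = 9.67e-05). The summed ileal list stood at 3876 to 5020 and 3070 to 5576 CPM, and the jejunal list at 15604 to 21307 and 17670 to 21109 CPM. Of the 12 tested genes in each, 3 ileal and 4 jejunal genes had a negative fold, against 49.3% of all genes. The medians were 0.45 and 0.18 on the log2 scale, against 0.01 for all genes. In each of these 2 lists 0 of 12 genes passed by edgeR (1 lower in the ileal list, and 2 higher and 1 lower in the jejunal list, at an unadjusted p). DESeq2 called 1 ileal gene lower and 1 jejunal gene higher. Over all genes, 9.32% were higher and 7.09% lower at an unadjusted p, and 3.6% and 1.95% by DESeq2. Without knockout replicate 1, edgeR placed 4 ileal genes higher and 1 lower, and 1 jejunal gene higher and 1 lower. The shares of all genes were then 10% and 7.44%. The part of crypt yield and intestinal position in the alpha-defensin values was not tested.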

How the data were processed

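The deposited table of the authors holds raw counts of reads for 54446 genes in 6 libraries, 1 per mouse. Tools named in the submitters' processing notes are STAR 2.5.0a, Trim Galore, FastQC and bcl2fastq 2.17, with the mm10 build. How reads were counted, with which strand setting and what was done with multiple matches, is not given in the sources used here. The labels name both poly-A selection and a kit that removes ribosomal RNA. Of the gene identifiers, 97.8% matched GENCODE M21 with their version and coordinates, including all 39 Defa rows.

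The test was that of edgeR 4.0.16 under R 4.3.3 (TMM scaling, default expression filter with minimum count 10, two-sided quasi-likelihood F test, genotype as the sole term). P-values were adjusted over all 15068 genes tested by the Benjamini-Hochberg method, at 0.05. Standard errors were taken as the fold change (log2) divided by the square root of F. The code was tested on simulated data. CPM uses TMM-scaled totals, and at these depths 3 reads give 0.120 to 0.152 CPM. Alternatives were DESeq2 1.42.0, limma-voom (limma 3.58.1), other scalings and filters, the replicate block and leaving out libraries. The family, the gene lists and the tests were chosen with earlier results of these data known. A value in each library is given for Defa rows with a mean of at least 10 CPM or a call by edgeR or DESeq2, and for Lyz1, Mmp7, Mptx2 and Ang4. Other rows with such values were chosen after they were seen. Replicates differed by more than sampling noise (chi-square per gene at least 24.0).

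Libraries of the same replicate number had deviations from their group means that correlated at 0.117, 0.119 and 0.149, so by the preset limit of 0.1 the numbers were treated as a possible pairing. No label says what the number marks.

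Word and coding-sequence comparisons used GENCODE M21 transcripts with Biopython 1.88, and RefSeq promoters matched members by symbol.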

Additional observations from a re-analysis of the deposited data

How the results depend on the processing

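For the alpha-defensin rows, the number past the adjusted threshold was 0 of 11 by edgeR. It became 2 of 23 with no filter on low counts (10 of 23 rows at an unadjusted p) and 2 of 11 with DESeq2. When a library was left out it was 0 to 2, the 2 being of 12 rows tested. For the Paneth list it became 2 of 35 with no filter, 4 of 33 with DESeq2 and 0 to 13 of 33 when a library was left out. Over all genes it was 9 of 15068, and 284 of 28231 with no filter (3511 of 28231 at an unadjusted p). Of 15068 genes it was 16 with library totals, 836 with DESeq2, 5 with limma-voom and 0 with the replicate block. When a library was left out it was 0 to 2700, the 2700 being of 15470 genes tested. The upper ends of these 3 ranges came without knockout replicate 1, which left only knockouts with a female pattern of Xist and Ddx3y. Without the 3 libraries of doubtful sex label it was 0 (207 at an unadjusted p), with 1 control that is assumed to vary like the knockouts. With the block, 2500 genes had an unadjusted p below 0.05. The block changed no call of an alpha-defensin row. The family's ratio was 0.179 to 0.418 when a library was left out and 0.590 without those libraries. Direction turned for Defa21 with limma-voom (0.49) and without control replicate 1 (0.24), for Defa3 without control replicate 3 (0.04), and for Defa35 without the libraries of doubtful sex label (0.07), and the cause was not tested. When a library was left out, Defa21 ran from −1.66 to 0.24 and Defa3 from −2.13 to 0.04. The other 8 tested rows kept a negative fold under every alternative that tested them. Extra copies for the sum were chosen by RefSeq symbol and place, in place of reference proteins, which were not used here. Rows at a few CPM, such as Defa26 with 6 reads in knockout replicate 3, are limited by depth.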

Other observations

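The neighbouring beta-defensin gene and other antimicrobial genes of the epithelium went in both directions. Defb1, a beta-defensin gene next to the cluster, stood at 0.528, 1.33 and 0.795 CPM in controls and 0.152, 0 and 0 CPM in knockouts (log2 fold change −4.15, SE 0.91, edgeR adjusted p = 0.124, DESeq2 adjusted p = 0.00778). Every knockout lay below the filter's 0.439 CPM. Defb1 thus entered the test through the controls, where it was higher, so these values describe the row and are not support for a change. Of 12 tested genes of the fixed antimicrobial list, 0 passed by edgeR (3 higher and 3 lower at an unadjusted p), and DESeq2 placed 1 higher and 2 lower. The 2 lower were Reg3a and Defb1 itself, and the 1 higher was Ltf, which is also in the neutrophil list. Over all genes, 9.32% were higher and 7.09% lower at an unadjusted p, and 3.6% and 1.95% by DESeq2. The bactericidal lectin gene Reg3g stood at 594, 81.2 and 124 CPM in controls and 73.9, 4715 and 1559 CPM in knockouts, and Reg3b at 1054, 111 and 267 CPM and 74.2, 8612 and 2913 CPM. In both, knockout replicate 1 was the lowest of all 6 libraries and the other knockouts were the highest. Reg3a stood at 71.2, 61.0 and 56.6 CPM in controls and 12.7, 13.9 and 24.5 CPM in knockouts (edgeR adjusted p = 0.0719, DESeq2 adjusted p = 1.28e-08), and so was lower in every knockout, as was the alpha-defensin sum.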
